A study of Mus musculus with 16 samples.

Results

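Nfatc2, Barx1 and Sp6 are 3 transcription factor genes of the 16383 genes measured by mRNA sequencing in mouse spermatogonia that had been through busulfan and then a MEK inhibitor or vehicle. They were chosen because their libraries were completely separated between groups in a comparison that involves the inhibitor, so their separation there is the ground of choice and is given below as a description, without a test. Nfatc2 and Barx1 were separated between inhibitor and vehicle in wild type, and all 3 were separated between knockout and wild type under the inhibitor. For Nfatc2 and Barx1 the 4 wild-type libraries with inhibitor were the lowest of the 16, and for Sp6 they were among the lowest 5, which is in part how the genes were chosen. The other 3 groups overlapped each other. No gene of the table, these 3 included, passed the adjusted threshold in any comparison.

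The cells were undifferentiated spermatogonia, the mitotic germ cells that include the stem cells of the testis, isolated by fluorescence-activated sorting from adult mice. Busulfan, an alkylating agent that depletes proliferating germ cells, had been given at 10 mg/kg to all mice, and the cells were taken 10 days later. PD0325901, which blocks MEK1 and MEK2, or vehicle with 10% DMSO in buffer was injected daily for 7 days from day 3, the inhibitor at 2.5 mg/kg. The 4 groups held 4 libraries each: knockout with inhibitor (KO_PD), knockout with vehicle (KO_vehicle), wild type with inhibitor (WT_PD) and wild type with vehicle (WT_vehicle). The knockout is titled Spry4 G-KO in the labels, and its column names read GCRT_Spry4KO where those of wild type read Spry4ff. What GCRT stands for, the driver and timing of the deletion and the markers of the sort were not given in the sources used here, and an effect of what GCRT names cannot be told apart from loss of Spry4. The column names of the inhibitor libraries also read PD8, which was not explained in the sources used here. There was no group without busulfan. A single library is named by its group and replicate, as WT_PD 2.

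MEK phosphorylates the kinase ERK, which carries signals from growth factor receptors to the nucleus, and Spry4 encodes a feedback inhibitor of that route. NFATc2 is a calcium-regulated factor: its phosphorylated form stays in the cytoplasm, the phosphatase calcineurin releases it to the nucleus, and there it often binds DNA together with AP-1 proteins, best known from T cells. BARX1 is a homeodomain factor of stomach and molar mesenchyme in the mouse, and SP6, also called epiprofin, is a zinc-finger factor of the SP/KLF family needed for mouse tooth and skin development.

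Values are FPKM, fragments per kilobase of transcript length, relative to the size of the library. The divisors behind the FPKM values, recovered from the low values, ran from 23360200 to 36613400 per library, and between 12257 and 12805 genes reached 1 FPKM in each library. Spry4 itself stood at 8.23 to 19.3 FPKM in KO_PD and 7.28 to 14.7 FPKM in KO_vehicle, against 15.9 to 27.4 FPKM in WT_PD and 19.9 to 23.8 FPKM in WT_vehicle, so its transcript was reduced but present in the knockout. KO_vehicle lay below WT_vehicle in all 4 libraries (log2 difference -1.01, two-sided exact permutation p = 0.0286, the smallest that 4 against 4 can give). KO_PD and WT_PD overlapped in Spry4 (log2 difference -0.75, exact permutation p = 0.0571), since KO_PD 4 at 19.3 FPKM lay within the WT_PD range. Without KO_PD 4 the log2 differences between KO_PD and WT_PD were 0.41 for Nfatc2, 0.53 for Barx1 and 0.65 for Sp6. All 12 listed markers of undifferentiated spermatogonia were measured, and Zbtb16, which encodes PLZF, ran from 85.6 to 125 FPKM. KO_vehicle 3 stood apart in spermatid transcripts, with Prm1, the sperm protamine gene, at 739 FPKM against 0.313 to 32.5 FPKM in the other 15 libraries. Acta2, the smooth muscle actin gene and a defining transcript of the peritubular myoid cells around the tubules, ran from 367 to 5095 FPKM. Among the knockout libraries, KO_vehicle 3 was the lowest and KO_PD 4 the highest in both Spry4 and Acta2 (538 and 3937 FPKM for Acta2). Which cells the remaining Spry4 transcript came from was not tested.

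Nfatc2 (ENSMUSG00000027544, GRCm38 chromosome 2, 168476410 to 168601657, minus strand) is annotated with 9 transcripts of up to 11 exons and overlaps no other gene. Barx1 (ENSMUSG00000021381, chromosome 13, 48662998 to 48666507, plus strand) has 1 transcript of 4 exons. Sp6 (ENSMUSG00000038560, chromosome 11, 97013394 to 97024734, plus strand) has 2 transcripts of up to 2 exons and overlaps the antisense gene Gm11532. The library kit keeps strand, but whether the counting used it is not given in the sources used here, so the part of the Sp6 value that could come from Gm11532 reads is uncertain. Values are per gene and do not tell which transcript start was used.

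Promoter windows, 250 bases before to 50 after a transcript start, were available for Barx1 and for 2 starts of Nfatc2 (RefSeq, build GRCm38.p6). They are shown because the factors under study bind motifs that can be looked up by letters. Capitals mark GC boxes (GGGCGG, the SP factor motif) and NFAT cores (GGAAA) on either strand, with overlapping matches counted each.
Barx1 chr13:48662786-48663085 (+): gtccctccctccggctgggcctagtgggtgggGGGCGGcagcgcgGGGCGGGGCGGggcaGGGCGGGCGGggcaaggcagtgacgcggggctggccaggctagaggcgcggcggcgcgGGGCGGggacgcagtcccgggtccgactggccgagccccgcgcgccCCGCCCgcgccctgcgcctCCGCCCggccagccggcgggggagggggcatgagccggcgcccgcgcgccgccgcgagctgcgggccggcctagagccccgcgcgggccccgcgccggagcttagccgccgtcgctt
Nfatc2, upstream start, chr2:168601608-168601907 (-): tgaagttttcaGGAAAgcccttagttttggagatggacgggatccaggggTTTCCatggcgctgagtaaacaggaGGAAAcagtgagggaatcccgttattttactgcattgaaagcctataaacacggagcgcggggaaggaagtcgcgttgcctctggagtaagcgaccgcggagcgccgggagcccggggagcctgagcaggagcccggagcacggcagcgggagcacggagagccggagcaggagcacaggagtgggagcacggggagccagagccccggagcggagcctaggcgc
Nfatc2, downstream start, chr2:168590316-168590615 (-): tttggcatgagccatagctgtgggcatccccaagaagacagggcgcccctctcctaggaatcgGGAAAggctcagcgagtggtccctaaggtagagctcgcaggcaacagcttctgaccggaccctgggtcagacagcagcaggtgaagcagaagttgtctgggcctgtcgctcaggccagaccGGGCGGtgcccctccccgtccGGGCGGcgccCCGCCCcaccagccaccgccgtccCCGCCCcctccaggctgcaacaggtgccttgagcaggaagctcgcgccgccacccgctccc

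The Barx1 window held 8 GC boxes, some overlapping, in a sequence of 84.7% G and C, and no NFAT core. The upstream Nfatc2 window held 3 NFAT cores and no GC box, and the downstream window held 4 GC boxes and 1 NFAT core. None of the 3 windows held an AP-1 site (TGANTCA), an ETS core (CCGGAA) or a homeodomain core (TAATTG). Of 32851 mouse promoter windows of the same length, 35.7% held a GC box, 61.3% an NFAT core, 7.81% an AP-1 site, 14.9% an ETS core and 8.0% a homeodomain core. These are letter matches only, and no binding was measured.

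All 3 genes were moderately expressed and reached 1 FPKM in all 16 libraries, so each passed the low-value filter (1 FPKM in at least 4 libraries) without depending on any group. Their mean levels stood at the 35.3 (Nfatc2), 48.8 (Barx1) and 46.7 (Sp6) percentile of the 12907 genes tested. The values rest on 1021 to 2154 reads a library for Nfatc2, 151 to 609 for Barx1 and 478 to 1267 for Sp6. These are the smallest whole reads that the FPKM values allow, and multiples of them would be whole as well. Counting error alone was thus at most 3.13% for Nfatc2, 8.14% for Barx1 and 4.57% for Sp6. The highest library exceeded the lowest 1.72-fold for Nfatc2, 3.40-fold for Barx1 and 2.26-fold for Sp6.

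Nfatc2 had 4.73, 5.25, 5.88 and 5.56 FPKM in KO_PD and 4.53, 5.25, 4.64 and 5.15 FPKM in KO_vehicle. It had 4.11, 4.06, 3.42 and 3.76 FPKM in WT_PD, against 4.83, 4.13, 5.17 and 5.87 FPKM in WT_vehicle. The 4 WT_PD libraries were the lowest of all 16. The margin to WT_vehicle was thin, since WT_PD 1 at 4.11 FPKM and WT_vehicle 2 at 4.13 FPKM differed by only 0.0185 FPKM, less than the counting error of either. Toward KO_PD it was wider, at 0.616 FPKM.

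Barx1 had 6.35, 6.97, 6.94 and 11.9 FPKM in KO_PD and 8.05, 7.14, 9.88 and 12.02 FPKM in KO_vehicle. It had 5.24, 3.75, 5.14 and 4.12 FPKM in WT_PD, against 8.22, 5.75, 7.26 and 12.8 FPKM in WT_vehicle. Again WT_PD was below the other 12 libraries, with a margin of 0.514 FPKM to WT_vehicle and 1.11 FPKM to KO_PD. The replicate 4 libraries of the other 3 groups were each the highest of their group, while WT_PD 4 was among the low ones.

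Sp6 had 7.23, 9.97, 7.56 and 9.01 FPKM in KO_PD and 6.79, 7.20, 7.15 and 8.90 FPKM in KO_vehicle. It had 4.68, 4.84, 5.38 and 5.25 FPKM in WT_PD, against 5.55, 5.33, 7.69 and 10.6 FPKM in WT_vehicle. WT_PD lay 1.85 FPKM below KO_PD at the nearest libraries but overlapped WT_vehicle, because WT_vehicle 2 at 5.33 FPKM was under the highest WT_PD library. Of the 12 libraries outside WT_PD, 11 were above all of WT_PD. WT_vehicle was the most spread group for Sp6.

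**Figure D1:**
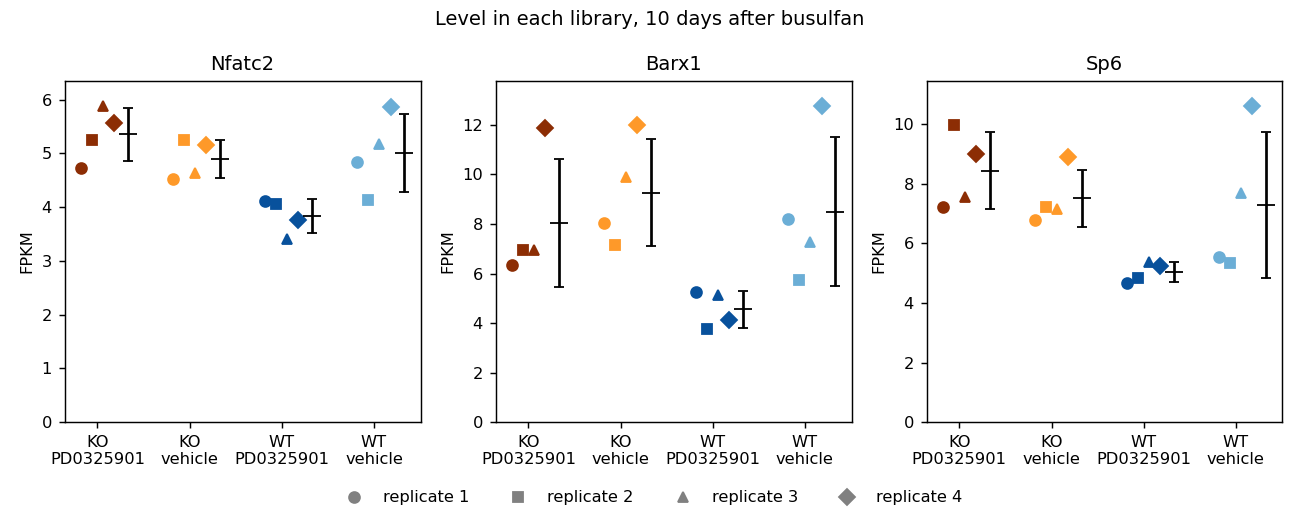
FPKM of Nfatc2, Barx1 and Sp6 in each of 16 libraries (points, shaped by replicate number) with the mean and SD of each group of 4 (black). The WT PD0325901 libraries are the lowest 4 for Nfatc2 and Barx1, and for Sp6 all but 1 of the other 12 libraries lie above them.

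By group mean the order from the highest was KO_PD, WT_vehicle, KO_vehicle and WT_PD for Nfatc2, at 5.35 ± 0.489, 5.003 ± 0.724, 4.89 ± 0.357 and 3.84 ± 0.321 FPKM (SD, n = 4 each). For Barx1 it was KO_vehicle, WT_vehicle, KO_PD and WT_PD, at 9.27 ± 2.16, 8.49 ± 3.01, 8.04 ± 2.58 and 4.56 ± 0.743 FPKM. For Sp6 it was KO_PD, KO_vehicle, WT_vehicle and WT_PD, at 8.44 ± 1.28, 7.51 ± 0.944, 7.29 ± 2.45 and 5.04 ± 0.328 FPKM. The first 3 groups in each order were within 1 SD of their neighbour. WT_PD lay completely below all other libraries in 4 of the 12907 genes or 0.031%, and above all others in 5 genes (0.0387%). Since Nfatc2, Barx1 and Sp6 were chosen on part of that pattern, the shares describe the table and are no test. The share that chance would give for 4 against 12 libraries was not computed. For 4 against 4, exchanged labels would separate a gene in either direction with a probability of 0.0286. The shares separated that way were 1.7% (KO_PD and KO_vehicle), 1.46% (KO_vehicle and WT_vehicle) and 1.22% (KO_PD and WT_vehicle), each below it.

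With PD0325901 in wild type, the question is what MEK inhibition does to surviving cells with Spry4 intact. Nfatc2 stood at 76.7% of the vehicle mean (log2 difference -0.34, SE 0.10, on the log2(FPKM + 0.5) scale used for all differences) and Barx1 at 53.7% (-0.79, SE 0.24). They are 2 of the 29 genes (0.225% of those tested) whose libraries were separated in the lower direction, which is how they were chosen. Sp6 was not chosen on this comparison, although its WT_PD libraries are also those of the comparison that chose it, and stood at 69.1% of vehicle (-0.44, SE 0.17). Because the choice favoured low WT_PD values, no test is given for Sp6 here either. In this comparison 0 of the 12907 genes (0%) passed at an adjusted p under 0.05, while 115 (0.891%) had an unadjusted p under 0.05. Without WT_vehicle 4, the highest wild-type library for each gene, the log2 differences were -0.26 for Nfatc2, -0.58 for Barx1 and -0.26 for Sp6. In bulk libraries, fewer cells expressing a gene and less transcript per cell cannot be told apart.

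In the knockout, inhibitor and vehicle libraries overlapped for all 3 genes; the KO_PD libraries also entered the comparison that chose the genes. The log2 difference was 0.12 for Nfatc2 (95% interval -0.10 to 0.34), -0.21 for Barx1 (-0.72 to 0.29) and 0.15 for Sp6 (-0.22 to 0.53), each with a limma adjusted p of 0.968. The KO_PD level was 109% of the KO_vehicle level for Nfatc2, 86.7% for Barx1 and 112% for Sp6. Here 0% of genes passed the adjusted threshold, 2.96% had an unadjusted p under 0.05 and 1.7% had separated libraries.

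Knockout and wild type given vehicle share no library with the choice of Sp6, but WT_vehicle took part in that of Nfatc2 and Barx1. The groups did not differ beyond their spread in any of the 3 genes. The log2 difference was -0.02 for Nfatc2 (95% interval -0.24 to 0.20), 0.15 for Barx1 (-0.35 to 0.65) and 0.08 for Sp6 (-0.29 to 0.45), each with a limma adjusted p of 0.99982. The share of genes past the adjusted threshold was 0%, 1.94% had an unadjusted p under 0.05 and 1.46% had separated libraries. Leaving out single libraries turned the sign for each of the 3 genes, for Nfatc2 without WT_vehicle 4 (0.05), for Barx1 without WT_vehicle 2 (-0.01) and for Sp6 without WT_vehicle 2 (-0.04).

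Under the inhibitor, where all 3 genes were chosen, KO_PD stood at 140% of WT_PD for Nfatc2 (log2 difference 0.43, SE 0.10), 176% for Barx1 (0.72, SE 0.24) and 168% for Sp6 (0.68, SE 0.17). Separation in the higher direction was met by 112 genes (0.868%) in this comparison, and 9 genes (0.0697%) were separated lower in wild type with inhibitor and higher in the knockout with inhibitor. No gene passed the adjusted threshold (0%), and 4.69% had an unadjusted p under 0.05. KO_PD against WT_vehicle gave log2 differences of 0.10 for Nfatc2 (95% interval -0.12 to 0.31), -0.06 for Barx1 (-0.57 to 0.44) and 0.24 for Sp6 (-0.13 to 0.61). All 3 overlapped there (limma adjusted p = 0.99982; 0% of genes passed, 1.51% had an unadjusted p under 0.05 and 1.22% were separated). KO_PD was the higher group in the choice of all 3 genes, and WT_vehicle in that of Nfatc2 and Barx1. The comparison is thus not independent of the choice. The interaction, the inhibitor difference in the knockout minus that in wild type, was 0.45 (SE 0.14) for Nfatc2, 0.57 (SE 0.33) for Barx1 and 0.60 (SE 0.25) for Sp6, and it contains the comparisons that chose the genes. Pooled over genotypes, the inhibitor difference was -0.11, -0.50 and -0.14 for Nfatc2, Barx1 and Sp6 in that order, and pooled over treatments the knockout difference was 0.21, 0.44 and 0.38. In these last 3 comparisons 0% of genes passed, and 1.71%, 1.84% and 4.35% had an unadjusted p under 0.05. These comparisons share groups with each other and are not independent.

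**Figure D2:**
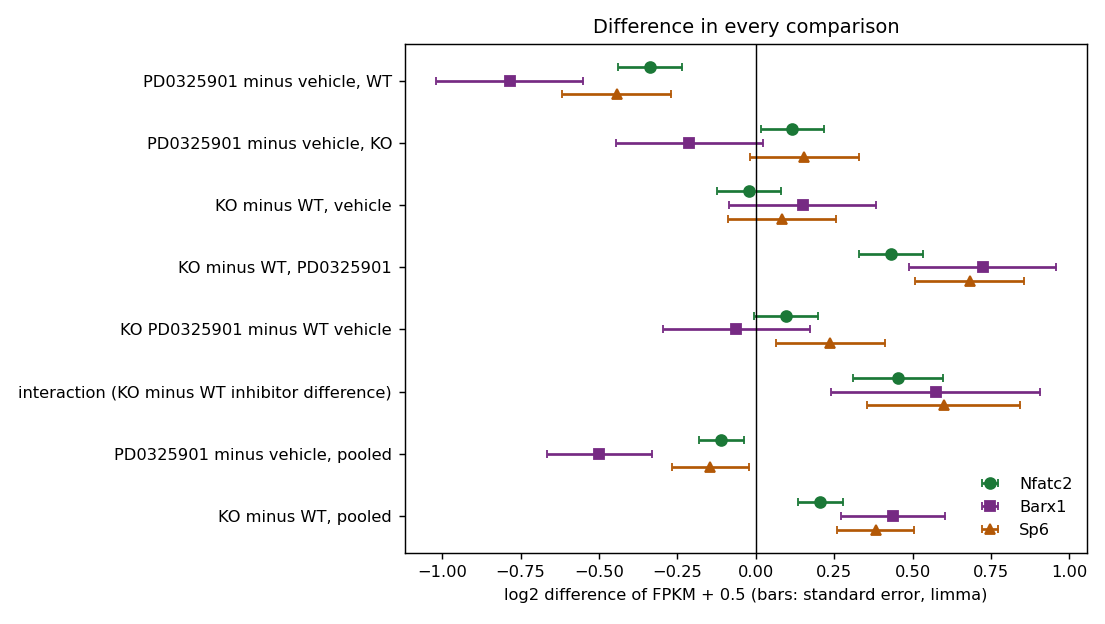
Log2 difference of FPKM + 0.5 with its standard error for each gene in 8 comparisons, each the first group minus the second. The differences largest in size, -0.79 (PD0325901 minus vehicle in WT) and 0.72 (KO minus WT with PD0325901), both for Barx1, involve the WT PD0325901 libraries.

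The lower and the higher 8 library numbers in the column names hold 2 libraries of each group, and what the numbers stand for is not given. In the lower and higher numbers the log2 difference of WT_PD and WT_vehicle was -0.12 and -0.56 for Nfatc2, -0.58 and -0.99 for Barx1, and -0.17 and -0.71 for Sp6. That of KO_PD and WT_PD was 0.26 and 0.61 for Nfatc2, 0.54 and 0.91 for Barx1, and 0.77 and 0.59 for Sp6. All 6 pairs kept one sign, with the wild-type inhibitor difference smaller in the lower numbers for each gene. Where libraries were completely separated, the choice of genes fixed the sign, so only Sp6 in wild type could have turned. In the knockout the difference of KO_PD and KO_vehicle was 0.03 and 0.21 for Nfatc2, -0.18 and -0.25 for Barx1 and 0.26 and 0.05 for Sp6. The sign differed between the 2 sets for KO_vehicle and WT_vehicle in Nfatc2 (0.11 and -0.16) and Sp6 (0.34 and -0.17).

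Across the 16 libraries the 3 genes were positively correlated on the log2(FPKM + 0.5) scale. Pearson's r was 0.83 for Nfatc2 and Sp6, 0.79 for Barx1 and Sp6 and 0.74 for Nfatc2 and Barx1, with Spearman's rho of 0.86, 0.73 and 0.67. The choice of genes that are all low in WT_PD fixes part of this, so no p is given. Without the 4 WT_PD libraries r was 0.75, 0.59 and 0.46. Within the 8 knockout libraries r was 0.50, 0.34 and 0.05, and within the 8 wild-type libraries 0.83, 0.85 and 0.87.

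Acta2 was 1803, 1345, 1800 and 3937 FPKM in KO_PD and 1751, 988, 538 and 2910 FPKM in KO_vehicle. It was 571, 367, 5095 and 3035 FPKM in WT_PD, against 945, 2890, 3154 and 1986 FPKM in WT_vehicle. The highest and the lowest library of the study were both in WT_PD, the group whose low values of the 3 genes were part of the choice. The log2 difference of Acta2 was -0.60 between WT_PD and WT_vehicle (two-sided exact permutation p = 0.571), 0.67 between KO_PD and KO_vehicle (p = 0.314, exact), and 0.60 between KO_PD and WT_PD (p = 0.514, exact). The arithmetic means did not follow these log2 differences, at 2267 FPKM in WT_PD against 2244 FPKM in WT_vehicle, and 2221 FPKM in KO_PD against 2267 FPKM in WT_PD. It was -0.66 between KO_vehicle and WT_vehicle (exact permutation p = 0.314) and 0.00 between KO_PD and WT_vehicle (p = 1, exact permutation).

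No relation of the 3 genes with Acta2 across libraries passed the permutation test. The choice of genes low in WT_PD fixes part of r here and with Prm1 and Zbtb16. These tests therefore do not show that a relation is absent. Pearson's r with Acta2 over 16 libraries was 0.02 for Nfatc2 (permutation p = 0.936, Spearman's rho 0.06, p = 0.831), 0.21 for Barx1 (p = 0.436, rho 0.09, p = 0.747) and 0.29 for Sp6 (p = 0.274, rho 0.32, p = 0.231). After Benjamini-Hochberg adjustment over 9 relations, with Prm1 and Zbtb16 as the other partners, every one of these p-values for r was 0.936 and every one for rho 0.935. Leaving out WT_PD 2 and KO_vehicle 3, the 2 libraries farthest from the Acta2 median, r was -0.18, 0.09 and 0.17 for Nfatc2, Barx1 and Sp6. In the lower library numbers r was 0.24, 0.57 and 0.44, and in the higher numbers -0.25, -0.29 and -0.17. Within the knockout libraries r was 0.42, 0.37 and 0.45, and within the wild-type libraries -0.10, 0.19 and 0.34. Without the WT_PD libraries r with Acta2 was 0.17, 0.11 and 0.23. Over all 16 libraries Prm1 gave r of 0.08, 0.24 and 0.16 and Zbtb16 0.47, 0.02 and 0.09, none of which passed. With Acta2 as a term in the fit, the wild-type inhibitor differences were -0.35 for Nfatc2, -0.75 for Barx1 and -0.41 for Sp6.

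**Figure D3:**
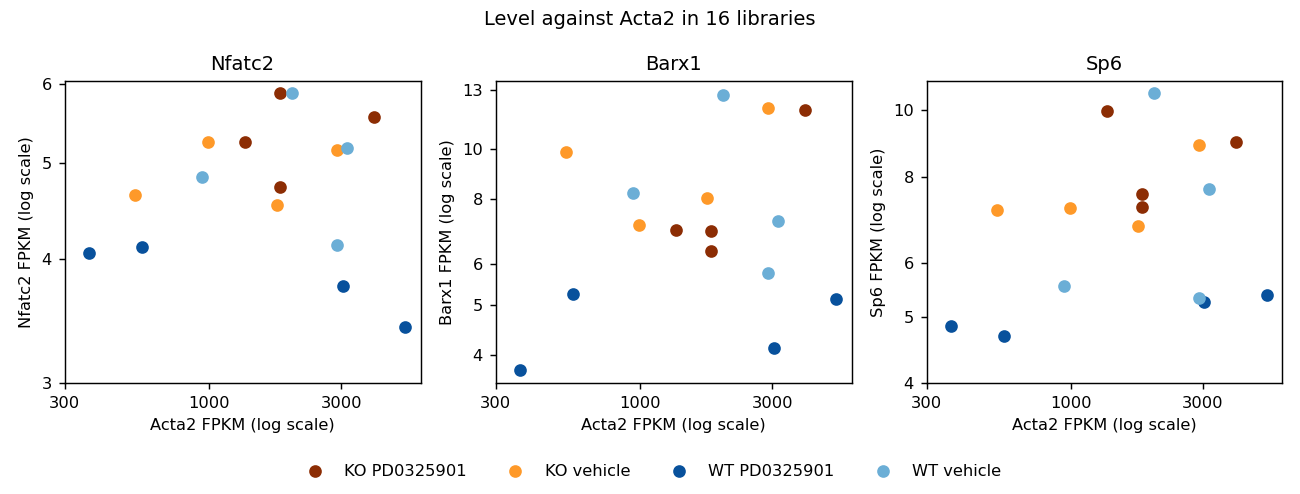
FPKM of each gene against Acta2 in the 16 libraries, both on log scales, coloured by group. WT PD0325901 libraries span Acta2 from 367 to 5095 FPKM. They are among the lowest 5 libraries of each panel, which is in part how the genes were chosen.

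Markers of other cells were measured beside these values. The summed level of 12 peritubular myoid markers was 3352 to 9788 FPKM in KO_PD, 1379 to 7127 in KO_vehicle, 1194 to 11943 in WT_PD and 2508 to 7731 in WT_vehicle, so all groups overlapped. Sums of 9 spermatid markers (27.4 to 133, 11.4 to 2824, 9.36 to 109 and 10.4 to 91.3 FPKM in that order) and of 9 endothelial markers (23.8 to 52.0, 27.2 to 49.4, 20.1 to 62.7 and 28.7 to 38.9 FPKM) overlapped as well. By the log2 difference, all 8 tested spermatid markers were lower with inhibitor, with a median of -0.74 in the knockout and -0.56 in wild type, and all 8 were higher in KO_PD than in WT_PD (median 0.52). Over all genes tested, 49.5% were lower with inhibitor in the knockout and 46.0% in wild type. Median spermatid sums were 40.6 FPKM in KO_PD and 43.7 in KO_vehicle, the group that holds KO_vehicle 3. They were 30.5 FPKM in WT_PD and 67.0 in WT_vehicle. Of 11 tested peritubular myoid markers, 9 were higher and 2 lower with inhibitor in the knockout (median 0.67), 3 were higher and 8 lower in wild type (-0.44), and 9 were higher and 2 lower in KO_PD than in WT_PD (0.48). None of these markers passed the adjusted threshold, and the part of these cells in the values of the 3 genes was not tested. Leukocytes are the cells in which NFATc2 is best known. Of 12 leukocyte markers 9 were measured, and their sum was 8.58 to 11.4 FPKM in KO_PD, 7.40 to 12.01 in KO_vehicle, 6.37 to 7.81 in WT_PD and 5.52 to 9.98 in WT_vehicle. KO_PD thus lay above WT_PD in every library here too, and the part of leukocyte transcripts in the Nfatc2 values was not tested. The pan-leukocyte marker Ptprc did not exceed 0.0331 FPKM in any library, the macrophage marker Adgre1 did not exceed 0.228 FPKM, and the sum was mainly Cd68 (median 3.04 FPKM), Lck (2.34 FPKM) and Cd2 (1.20 FPKM).

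The balance of GC-rich and GC-poor transcripts also varied between libraries. A GC index was computed for each library as the mean deviation of the 2495 genes richest in GC minus that of the 2495 poorest, on the log2 scale, leaving out the 3 genes. It was 0.17 ± 0.33 in KO_PD, -0.03 ± 0.24 in KO_vehicle, -0.10 ± 0.17 in WT_PD and -0.04 ± 0.14 in WT_vehicle (SD, n = 4 each). The 3 genes are GC-rich, their transcripts standing at the 78.1 (Nfatc2), 99.6 (Barx1) and 90.5 (Sp6) percentile. Pearson's r with the index over the 16 libraries was 0.40 for Nfatc2 (permutation p = 0.120, rho 0.34, p = 0.192), 0.46 for Barx1 (p = 0.0694, rho 0.41, p = 0.116) and 0.46 for Sp6 (p = 0.0706, rho 0.52, p = 0.0391). None passed after adjustment over the 3 relations (lowest adjusted p 0.106 for r and 0.117 for rho). Here too the choice of genes fixes part of r, so these tests do not show that a relation is absent. Without KO_PD 4 and KO_vehicle 4 the values of r were 0.26, 0.10 and 0.27. In the lower library numbers they were 0.33, 0.44 and 0.47, and in the higher 0.42, 0.28 and 0.31. With the index as a term, KO_PD and WT_PD differed by 0.39 in Nfatc2, 0.50 in Barx1 and 0.59 in Sp6, and WT_PD and WT_vehicle by -0.33, -0.74 and -0.43. Acta2 itself rose with the index (r = 0.62, permutation p = 0.00984, rho 0.71, p = 0.0023). Without KO_PD 4 and KO_vehicle 4 that r was 0.55. The index and Acta2 are thus not separate measures of the libraries.

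The NFAT family and its regulators were given by lists, and no gene of any list passed the adjusted threshold in any comparison. Members are counted as higher or lower by the log2 difference. Apart from Nfatc2, 2 of the 4 other NFAT genes were higher with inhibitor and 2 lower, in the knockout as in wild type, although the mean FPKM of all 4 was higher in WT_PD than in WT_vehicle. Nfatc1 averaged 4.32 ± 1.52 FPKM in KO_PD and 3.36 ± 1.58 in KO_vehicle, and 4.52 ± 3.09 in WT_PD and 4.02 ± 1.10 in WT_vehicle. Nfatc3, the most even of the family, averaged 12.8 ± 1.71, 13.6 ± 0.818, 13.9 ± 0.715 and 13.1 ± 0.182 FPKM in KO_PD, KO_vehicle, WT_PD and WT_vehicle. Nfatc4 averaged 7.64 ± 3.17 in KO_PD and 6.49 ± 3.70 in KO_vehicle, and 7.64 ± 4.28 in WT_PD and 6.90 ± 1.30 in WT_vehicle. Nfat5, the member that responds to osmotic stress and not to calcineurin, was the highest at 14.98 ± 2.43 FPKM in KO_PD, 16.9 ± 2.55 in KO_vehicle, 18.7 ± 1.84 in WT_PD and 16.9 ± 1.67 in WT_vehicle. The log2 difference between WT_PD and WT_vehicle lay between -0.05 and 0.15 for these 4 genes, beside -0.34 for Nfatc2. Between KO_PD and WT_PD, 2 were higher and 2 lower, from -0.32 for Nfat5 to 0.12 for Nfatc1, beside 0.43 for Nfatc2. Nfatc2 was chosen on both of these comparisons, and whether it differed from the 4 other genes was not tested.

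Of 12 tested genes for calcineurin, its regulators and calmodulin, 6 were higher and 6 lower with inhibitor in the knockout, and 8 were higher and 4 lower in wild type. Their median log2 difference was -0.04 in the knockout and 0.05 in wild type, beside 0.00 and 0.01 over all genes tested. The catalytic subunit genes Ppp3ca (log2 difference 0.09, SE 0.10) and Ppp3cb (0.08, SE 0.13) and the regulatory subunit gene Ppp3r1 (0.10, SE 0.15) were close to vehicle in wild type with inhibitor. In the knockout the same genes stood at -0.19 (SE 0.10), -0.14 (SE 0.13) and -0.22 (SE 0.15). Rcan1, a calcineurin inhibitor that is itself an NFAT target, averaged 23.7 ± 0.489 FPKM in KO_PD and 27.0 ± 2.42 FPKM in KO_vehicle, against 27.4 ± 1.79 FPKM in WT_PD and 24.8 ± 2.35 FPKM in WT_vehicle. Rcan2 had the largest difference of the list in both genotypes, 0.50 (SE 0.62) in the knockout and -0.44 (SE 0.62) in wild type, each smaller than its error. Among the kinases that return NFAT to the cytoplasm, all 7 were tested (4 higher and 3 lower in the knockout, 5 higher and 2 lower in wild type), and Dyrk2 (0.35, SE 0.53, in the knockout and -0.17, SE 0.53, in wild type) and Csnk1e (0.18 and 0.15, SE 0.12) differed most. The 8 tested genes of calcium release and store-operated entry held 4 higher and 4 lower in the knockout and 3 higher and 5 lower in wild type. Orai1, a plasma membrane calcium channel, stood at -0.24 (SE 0.08) in the knockout and Itpr3, an IP3 receptor, at -0.22 (SE 0.12) in wild type. Orai3 (0.14, SE 0.31, in the knockout) and Itpr1 (-0.19, SE 0.31, in wild type) were the next in size.

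In the SP family, 6 genes were tested including Sp6, Sp7 and Sp9 were under the low-value filter and Sp8 was not analysed here. Sp1 averaged 24.0 ± 2.71 FPKM in KO_PD, 26.4 ± 1.84 in KO_vehicle, 26.1 ± 3.08 in WT_PD and 26.4 ± 0.611 in WT_vehicle, and Sp3 23.8 ± 3.95, 26.4 ± 3.14, 27.1 ± 1.66 and 25.7 ± 1.92 in the same order. Sp2 averaged 14.4 ± 2.53, 13.9 ± 1.92, 13.5 ± 2.39 and 14.2 ± 1.63 FPKM in KO_PD, KO_vehicle, WT_PD and WT_vehicle, and Sp4 13.9 ± 3.16, 15.8 ± 2.96, 15.8 ± 3.13 and 15.4 ± 1.26 FPKM. Sp5, the lowest that was tested, averaged 1.89 ± 0.327 FPKM in KO_PD, 1.65 ± 0.650 in KO_vehicle, 1.19 ± 0.262 in WT_PD and 1.24 ± 0.454 in WT_vehicle. With inhibitor in wild type, the 5 genes other than Sp6 differed from vehicle by -0.09 to 0.08 on the log2 scale, beside -0.44 for Sp6. Among these 5, 2 were higher and 3 lower in each genotype. Between KO_PD and WT_PD, 2 were higher and 3 lower. Sp5 differed most there, at 0.50 (SE 0.23), beside 0.68 for Sp6. Whether Sp6 differed from these 5 genes was not tested. Of 14 KLF genes, the zinc-finger relatives of SP6, 9 were higher and 5 lower with inhibitor in the knockout, and 7 were higher and 7 lower in wild type. Klf2 (0.78, SE 0.51, in the knockout and -0.29, SE 0.51, in wild type) and Klf4 (0.56, SE 0.47, and -0.28, SE 0.47) had the widest differences.

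**Figure D4:**
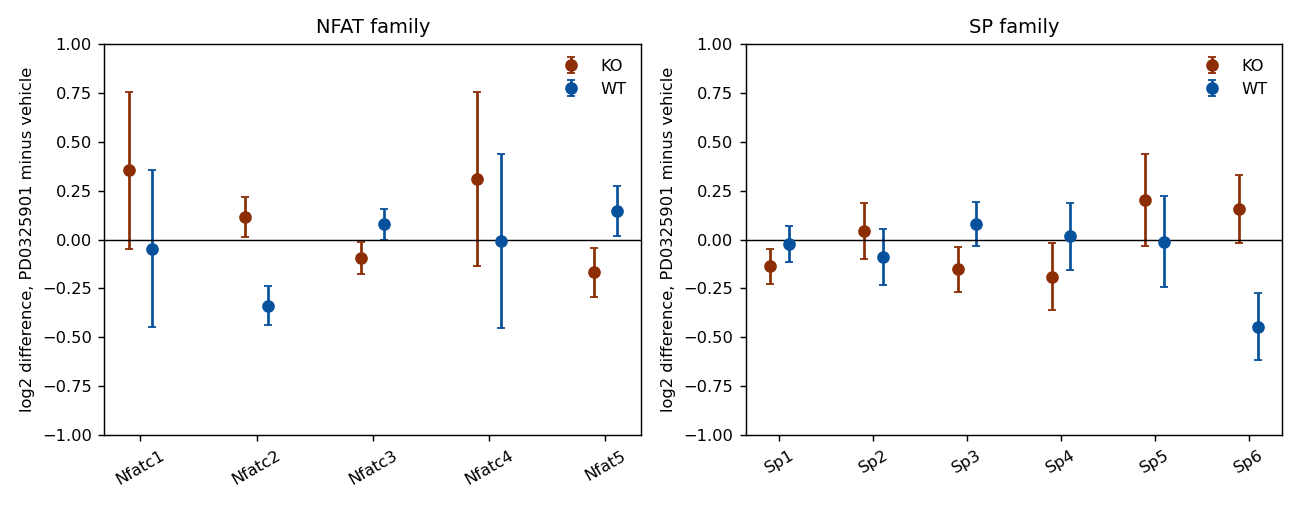
Log2 difference of inhibitor minus vehicle with its standard error (limma) for the 5 NFAT and 6 SP family genes tested, in KO and in WT. Nfatc2 and Sp6 are the members farthest below 0 in WT, at -0.34 and -0.44, which follows in part from how they were chosen.

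Barx1 has a close relative, Barx2, which was under the filter at a median of 0.377 FPKM. Of the 10 other NK-like homeobox genes tested, 7 were higher and 3 lower with inhibitor in the knockout, and 3 were higher and 7 lower in wild type. Their median log2 difference was 0.10 in the knockout and -0.16 in wild type. Between KO_PD and WT_PD, 7 were higher and 3 lower, with a median of 0.32, beside 0.72 for Barx1. Dlx3 stood there at 0.65 (SE 0.28), Dlx4 at 0.55 (SE 0.23) and Barhl2 at 0.47 (SE 0.27). Whether Barx1 differed from these 10 genes was not tested. Barhl2 averaged 7.97 ± 1.84 FPKM in KO_PD and 10.3 ± 2.92 in KO_vehicle, and 5.57 ± 0.982 in WT_PD and 8.63 ± 3.38 in WT_vehicle. Dlx3 averaged 8.62 ± 1.78 FPKM in WT_PD and 11.6 ± 3.47 in WT_vehicle, and Msx2 2.32 ± 0.364 FPKM in KO_PD and 1.77 ± 0.408 in KO_vehicle. Of 20 genes of tooth and ectodermal organ development, where Barx1 and Sp6 are best known, 8 passed the filter, 2 higher and 6 lower with inhibitor in the knockout and 5 higher and 3 lower in wild type. Sfrp1, a secreted WNT antagonist, was 4.55 ± 0.451 FPKM in KO_PD and 6.19 ± 0.706 in KO_vehicle with no overlap (log2 difference -0.41, limma adjusted p = 0.968; 1.15% of genes were separated lower in this comparison) and differed by -0.18 (SE 0.18) in wild type. Bmp4 (-0.27, SE 0.43, in the knockout) and Lef1 (0.26, SE 0.15, in wild type) followed in size.

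The 18 genes of ERK pathway output showed 11 higher and 7 lower with inhibitor in the knockout and 8 higher and 10 lower in wild type, with median log2 differences of 0.04 and -0.08. Etv5 and Dusp6, direct outputs of ERK signalling, differed by -0.16 (SE 0.13) and -0.17 (SE 0.15) in the knockout and by -0.16 (SE 0.13) and -0.10 (SE 0.15) in wild type. Egr1, an immediate early gene, was 103 ± 10.0 FPKM in WT_PD and 156 ± 29.7 FPKM in WT_vehicle, with no overlap. Its log2 difference was -0.58 (SE 0.20, limma adjusted p = 0.99988), and 0.225% of genes were separated lower in this comparison. Etv4 differed by 0.41 (SE 0.14) in the knockout and by -0.15 (SE 0.14) in wild type. Phlda1 (0.51, SE 0.27, in wild type) and Myc (0.28, SE 0.50, in the knockout) were the remaining genes of largest difference.

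The genes most like each of the 3 over the 16 libraries were found by Pearson's r among the 12174 tested genes that are not predicted genes. For Nfatc2 they were Dact2 (r = 0.83), Sp6 (0.83), Tspoap1 (0.83), Alkbh2 (0.82) and Mrps11 (0.81), and the most opposed were Ube2e2 (-0.84), Nus1 (-0.84) and Umad1 (-0.83). For Barx1 they were Lhfpl7 (0.88), the homeobox gene Barhl2 (0.86), the retinaldehyde dehydrogenase gene Aldh1a3 (0.86), Mypop (0.86) and the GDNF family receptor gene Gfra4 (0.85), and the most opposed were Crybg3 (-0.88), Kif5c (-0.87) and the homeobox gene Dlx1 (-0.84). For Sp6 they were Inppl1 (0.91), Tmc8 (0.90), Tmc6 (0.90), the SMAD inhibitor gene Smad6 (0.86) and Ppp1ca (0.86), and the most opposed were Aldh9a1 (-0.89), Bbx (-0.83) and Ube2e2 (-0.81). Of the 100 most alike genes, Barx1 and Sp6 shared 54, Nfatc2 and Sp6 45 and Nfatc2 and Barx1 28. The choice of 3 genes that are low in WT_PD fixes part of this overlap. Dact2 and Nfatc2 had r of 0.28 over the 8 knockout and 0.89 over the 8 wild-type libraries. The libraries differed in GC index (-0.28 to 0.56), whose part in these values was not tested.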

How the data were processed

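Per the labels, 16 polyA RNA libraries were prepared with strand-preserving chemistry. The authors deposited FPKM for 16383 genes. The submitters' processing notes list FastQC, STAR 2.7.10a, edgeR 4.0.14 and the builds mm10 and GRCm39 without a role. Counter, gene lengths and scaling between libraries were not given in the sources used here.

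Symbols were matched to GENCODE M21 (GRCm38). FPKM times exon length and a fitted divisor came within 0.1 of whole reads for 92.9% to 94.2% of values under 100 reads. These reads gave the counting errors and a limma-voom alternative. Reads summed to 86.7% to 113% of the divisor, so it may hold more than depth.

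Comparisons were fitted to log2(FPKM + 0.5) with limma 3.58.1 (R 4.3.3), with 4 group means and a trend on the mean, for 12907 genes with at least 1 FPKM in at least 4 libraries (3476 left out). Benjamini-Hochberg adjustment ran over those genes at a threshold of 0.05, and the fit was tested on simulated data. Single values were compared with two-sided exact permutation tests, and correlations with permutation tests of 100000 resamples (Python 3.11.15, scipy 1.17.1). Each library has its own SP number in its column name, but what that number stands for is not given. Replicates are not stated to be separate animals, so p-values reflect spread among libraries that may be technical. The 3 genes, the lists, the motifs and the rule for named genes were chosen with earlier results of these data known. The rule named the 3 genes, Acta2, Prm1, Zbtb16 and Spry4, all NFAT and SP genes, Ppp3ca, Ppp3cb, Ppp3r1, Rcan1, Etv5, Dusp6, the 2 listed genes of largest difference in each list and inhibitor comparison, and the 5 most alike and 3 most opposed genes. Single leukocyte markers and Barx2 were named after their values were seen. Alternatives were other pseudocounts, no filter, quantile or median scaling, voom, fits of 2 groups, the replicate block, Acta2, library number set or GC index as a term, and leaving out libraries.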

Additional observations from a re-analysis of the deposited data

Results flagged for a closer look

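Barx1 in KO_PD 4 stood at 11.89 FPKM, far from the other 3 KO_PD libraries at 6.35 to 6.97 FPKM. It was the only one of 20 sets of 4 libraries checked, 5 genes in 4 groups, in which 1 library lay that far out, and chance gives about 1 in 20. KO_PD 4 also had the highest GC index of the 16 libraries (0.56) and the highest Spry4 (19.3 FPKM) and Acta2 (3937 FPKM) of the knockout libraries. The part of these in the value was not tested. Without it the log2 difference of Barx1 was 0.53 between KO_PD and WT_PD and -0.41 between KO_PD and KO_vehicle.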

How the results depend on the processing

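No gene passed at an adjusted p under 0.05 in any comparison under the alternatives run, except 1 in the pooled knockout comparison with Acta2 as a term and 1 with the GC index as a term. The wild-type inhibitor difference stayed below 0 in every alternative, at -0.38 to -0.26 for Nfatc2, -0.88 to -0.54 for Barx1 and -0.48 to -0.28 for Sp6, and that of KO_PD and WT_PD stayed above 0, at 0.39 to 0.49, 0.50 to 0.82 and 0.59 to 0.73. Where the genes were chosen on separated libraries, leaving out libraries or changing the pseudocount could not turn the sign. This covers all of these differences except that of Sp6 in wild type. Leaving out single libraries, the wild-type inhibitor difference was -0.42 to -0.26, -0.94 to -0.58 and -0.57 to -0.26. Replicate numbers do not pair the libraries (24 same-numbered pairs, r from -0.53 to 0.73, 10 over 0.1; 5 of 16 libraries correlated best with their own number), and the replicate block left these differences at -0.34, -0.79 and -0.44 with 0 calls. Median centring moved single libraries by at most 0.15 on the log2 scale. WT_PD 4 and WT_vehicle 4 are written to 9 decimals and the other libraries to 4; without both, chosen after seeing the data, Nfatc2 in KO_vehicle minus WT_vehicle turned to 0.052 and Barx1 in KO_PD minus WT_vehicle to 0.14.

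Without single libraries, KO_vehicle minus WT_vehicle was -0.10 to 0.052 for Nfatc2, -0.0064 to 0.35 for Barx1 and -0.040 to 0.27 for Sp6, and Barx1 in KO_PD minus WT_vehicle was -0.26 to 0.14. Correlations were -0.13 to 0.30 for Nfatc2 and -0.041 to 0.34 for Barx1 with Acta2, -0.012 to 0.15 for Nfatc2 with Prm1, and -0.25 to 0.14 for Barx1 and -0.15 to 0.21 for Sp6 with Zbtb16. Acta2 differences were -1.24 to 0.023 (WT_PD minus WT_vehicle), -0.022 to 1.24 (KO_PD minus WT_PD) and -0.37 to 0.21 (KO_PD minus WT_vehicle). With quantile scaling r of Nfatc2 and Acta2 was -0.043. With group means removed it was -0.24, Nfatc2 and Prm1 -0.15, Sp6 and Prm1 -0.012, Barx1 and Zbtb16 -0.22, and Sp6 and Zbtb16 -0.19. The cause of these reversals was not tested. Depth limits Barx1 most, at 151 reads in its lowest library.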
